A study of Homo sapiens with 3 samples.

Results

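The exon junction complex and the nonsense-mediated decay pathway were described by 10 genes, all of them present among the 13479 genes of the deposited table. Genes were chosen by symbol: RBM8A was chosen on its values, because it was far lower in both RAB11A siRNA libraries, and its partners were chosen by their known roles. The 9 partners are MAGOH, MAGOHB, EIF4A3, CASC3, UPF1, UPF2, UPF3A, UPF3B and SMG5. Transcripts had been counted by CAGE, a method that captures the cap of an RNA and sequences a short tag of its 5′ end. The cells were EBC-1, a long-established line from a human squamous carcinoma of the lung. They had received 600 pmol of a negative control siRNA, of RAB11A siRNA 1 or of RAB11A siRNA 2 by electroporation, with 72 h after plating given as the time for every library. RAB11A is a small GTPase of the recycling endosome. Each treatment had 1 library, so no difference has a replicate check, and nothing says whether the libraries came from separate cultures.

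The exon junction complex is a set of proteins that the spliceosome leaves on mRNA just upstream of each exon-exon junction, where it marks the message as spliced. When a ribosome stops at a premature stop codon with such a complex still downstream, UPF proteins join the stalled ribosome and the mRNA is degraded, which is nonsense-mediated decay. RBM8A, also called Y14, binds MAGOH, and the pair locks the RNA helicase EIF4A3 onto the message.

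Levels are in CPM, the tags of a gene scaled to the library, and each tag marks 1 transcript start, so genes can be compared without a length correction. A step of 0.04 CPM was read as 1 tag, which puts the libraries at 24999968 to 24999972 tags. Summed over the listed genes alone the tags came to between 25137457 and 25204585, more than those totals. No source used here says how the near-equal totals arose, so a recovered tag may not be 1 sequenced read. Ratios are differences of log2(CPM + 1), and a gene is counted as called where libraries were at least 2-fold apart on that scale. Genes were compared where their mean over the libraries reached 5 CPM, or 125 tags. That held for 10788 genes, all 10 members included. Intervals are 95% intervals for counting error alone, and no source used here says whether tags are separate molecules. RAB11A, the target of both siRNAs, stood at 135.3 CPM with control, 7.48 with siRNA 1 and 22.7 with siRNA 2. Of the fixed lineage markers the table held KRT8, KRT18, KRT19 and EPCAM but not CDH1, and only SFN, PERP and S100A2 of 11 squamous markers. KRT5, KRT14, TP63 and SOX2, which were on the squamous list, matched no listed symbol. Of 14 markers of other cell types 3 were listed, which summed to 48.0 CPM with control, 24.4 with siRNA 1 and 34.0 with siRNA 2. CD68, a lysosomal glycoprotein used as a macrophage marker, made up most of it, at 45.2, 21.1 and 31.4 CPM. The remainder was COL1A1 and COL1A2, at 2.28 CPM or less each, and the leukocyte marker PTPRC, the endothelial marker PECAM1 and the fibroblast marker DCN matched no listed symbol. The part of these markers in the results was not tested. The libraries came from a cultured line, so CD68 is not read here as a sign of macrophages. In bulk RNA, fewer cells that express a gene and less of its RNA per cell cannot be told apart.

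RBM8A lies on the plus strand at chr1:145507415-145513536 (GRCh37), with its canonical transcript start at position 145507609. The genome holds a processed pseudogene of it, RBM8B, at chr14:60864475-60864999, also on the plus strand. The pseudogene is shown because it copies sequence at the start that CAGE counts. A stretch of 153 bases is identical between them, beginning at chr1:145507617 and chr14:60864425. It spans 50 bases before the RBM8A coding start and 103 bases from it on, along the spliced transcript. The coding part of the first RBM8A exon (chr1:145507667-145507733) and its copy (chr14:60864475-60864541) read as follows, in lower case throughout because no base differs.
RBM8A: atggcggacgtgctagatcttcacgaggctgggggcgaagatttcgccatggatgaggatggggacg
RBM8B: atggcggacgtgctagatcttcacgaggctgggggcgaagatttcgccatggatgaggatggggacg

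Over the whole coding sequence 515 of 522 bases (98.7%) were the same in the pseudogene. Of 7 annotated RBM8A starts, 4 lie within the shared stretch, so that a 50-base read from them has an exact match on both chromosomes. The canonical start lies 8 bases before the stretch, and 42 of its first 50 bases matched chromosome 14. The annotated pseudogene begins 50 bases after its copy of the start of the stretch. No source used here says how the authors placed reads that match more than 1 locus.

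MAGOH and MAGOHB, either of which can bind RBM8A, are separate genes that encode nearly the same protein. Their last 60 coding bases are shown as an example of how alike the paralogs are, with capitals for the 6 bases that differ. CAGE counts the 5′ end, so this stretch does not bear on whether their tags can be told apart. MAGOH was read from chr1:53692720-53692779 and MAGOHB from chr12:10758877-10758936, each on the minus strand.
MAGOH: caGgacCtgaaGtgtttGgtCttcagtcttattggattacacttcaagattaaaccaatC
MAGOHB: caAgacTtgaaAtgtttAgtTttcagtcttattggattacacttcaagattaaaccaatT

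Over their coding sequences MAGOH and MAGOHB were identical at 380 of 444 aligned positions (85.6%), and UPF3A and UPF3B at 55.0%. The canonical starts of the 9 partners, paralogs included, had no match elsewhere in the genome. Among other annotated starts of the partners, 2 of the 12 of UPF3A had exact 50-base copies on chromosome 17.

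The control library gave 8835 tags of RBM8A, or 353.4 CPM (interval 346 to 361). With siRNA 1 the gene had 11.3 CPM from 283 tags (10.0 to 12.7), and with siRNA 2 it had 11.1 CPM from 278 tags (9.85 to 12.5). The control library was high, both siRNA libraries were low, and the counting intervals of the siRNA libraries overlapped each other almost fully. Of the control level 3.20% remained after siRNA 1 (interval 2.84% to 3.61%) and 3.15% after siRNA 2 (2.78% to 3.55%). RBM8A thus had log2 ratios of -4.85 and -4.87, each with a counting standard error of 0.08. Both ratios use the same control library, so they are not independent checks. Between siRNA 1 and siRNA 2 the RBM8A log2 ratio was 0.02 with a counting standard error of 0.11. On this scale RBM8A ranked lowest of all genes compared with siRNA 1 and the second lowest with siRNA 2. The rank depends on the pseudocount of 1 CPM, since some genes with lower control levels had 2 tags or fewer in an siRNA library. Its level stood at percentile 95.6 of the genes compared in the control library and at percentiles 18.7 and 19 with siRNA 1 and siRNA 2. These values chose the gene and are a description.

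**Figure D1:**
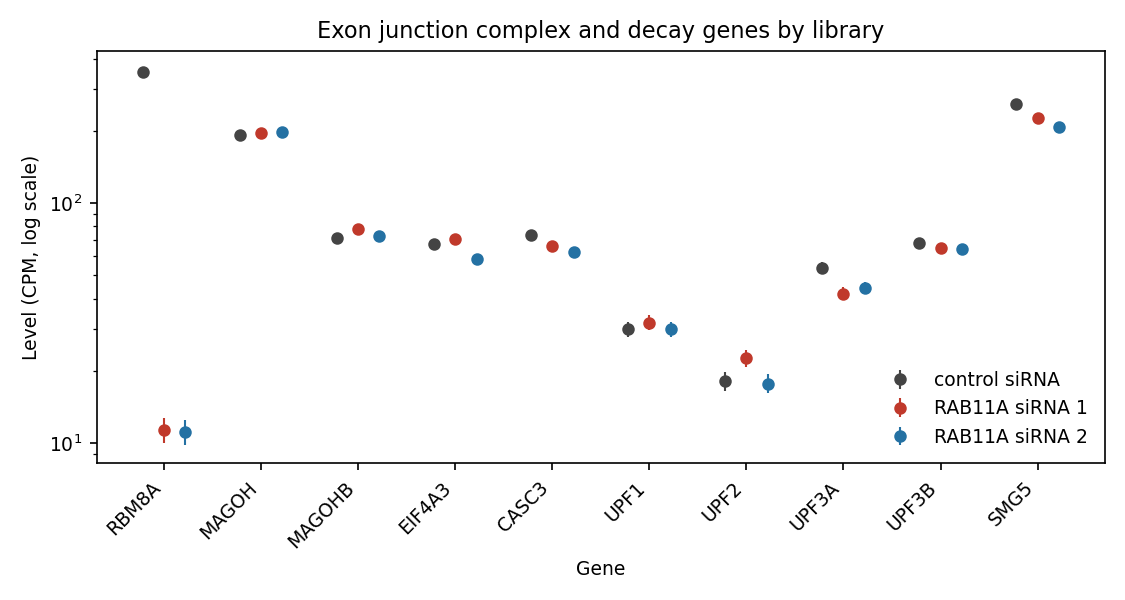
Level in CPM (log axis) of the 10 genes in the control siRNA, RAB11A siRNA 1 and RAB11A siRNA 2 libraries, 1 point per library, with 95% Poisson intervals of the tags as bars. RBM8A stands at 353.4 CPM in control and near 11 CPM in both siRNA libraries, while the 3 points of each other gene lie close together.

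The pseudogene RBM8B was found in the table by its identifier, under the name CTD-2568P8.3. It stood at 21.3 CPM with control, 20.3 with siRNA 1 and 21.6 with siRNA 2. The pseudogene was thus near the same level in all 3 libraries, with log2 ratios of -0.07 and 0.02 to control and counting standard errors of 0.09 and 0.08. In both siRNA libraries it was listed above RBM8A, and in control far below it. The sum of RBM8A and the pseudogene was 374.7 CPM with control, 31.6 with siRNA 1 and 32.7 with siRNA 2. That sum, which was formed after the data had been seen, had log2 ratios of -3.53 and -3.48 to control. Tags placed at the copied stretch upstream of the annotated pseudogene were not analysed here, and the part of read placement in the RBM8A difference was not tested.

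An exact copy of at least 1 annotated start elsewhere in the genome was found for 993 of 10658 genes searched (9.3%). Among the 17 genes at least 2-fold lower than control in both siRNA libraries, 0.158% of the genes compared, 16 were searched and 5 had such a copy, RBM8A included. Among the 11 genes at least 2-fold higher in both, 8 of 10 searched had one. Among genes with a log2 ratio of -1.5 or lower in both siRNA libraries, a cut that was not planned, 5 of 9 searched had one. They are the same 5 genes as at the 2-fold cut, RBM8A included. These are counts of few genes that share 1 control library, and RBM8A was chosen on these same ratios. The part of start copies in the differences was not tested.

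**Figure D2:**
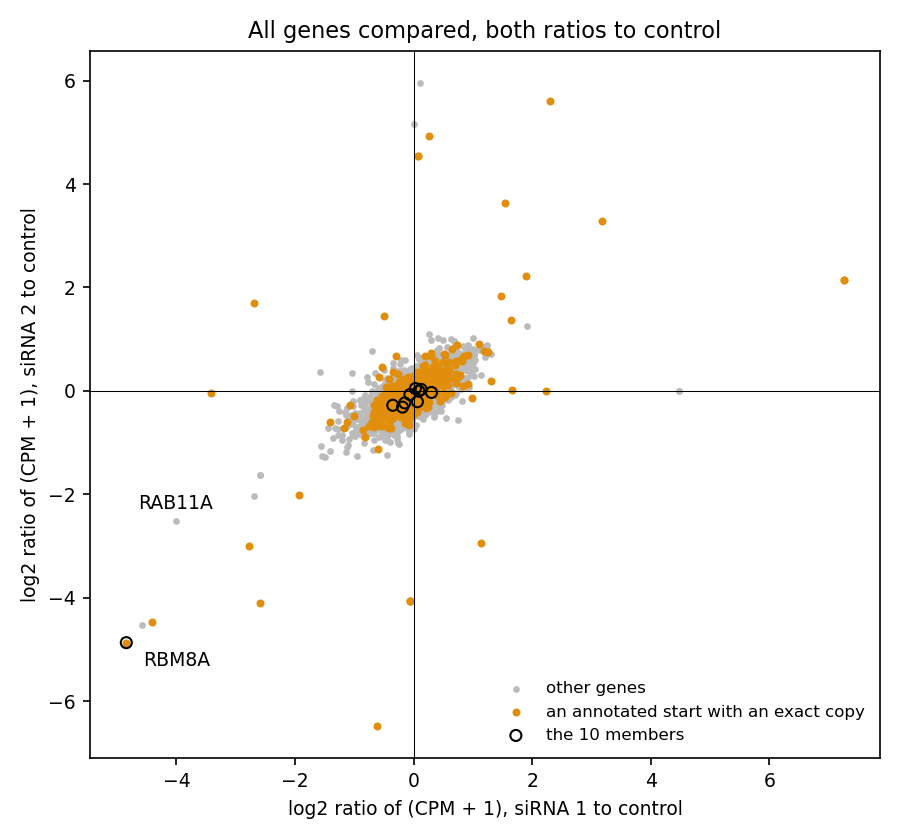
Log2 ratio of (CPM + 1) to control with siRNA 1 (horizontal) and siRNA 2 (vertical) for the 10788 genes compared, with genes that have an exact copy of an annotated start in orange and the 10 members circled. RBM8A lies at the lower left, at -4.85 and -4.87, and the other 9 circles lie within 0.36 of 0 on both axes, among the bulk of the genes.

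By Euclidean distance over both ratios to control, the rule for like genes named LINC00623, GTF2IRD2 and NSUN5P2. LINC00623 and GTF2IRD2 had 2 tags or fewer in both siRNA libraries and NSUN5P2 had 2 with siRNA 2, where the pseudocount of 1 CPM sets the ratio. Their nearness to RBM8A is therefore no measure of likeness, and the distances are not given. LINC00623, a long noncoding RNA gene whose identifier was not found in the annotation, stood at 23.9 CPM with control, 0.04 with siRNA 1 and 0.08 with siRNA 2 (597, 1 and 2 tags). GTF2IRD2, a gene of the TFII-I family, stood at 21.2 CPM with control, 0.04 with siRNA 1 and 0 with siRNA 2. A value of 0 tags was read against a set floor of 3 tags, or 0.12 CPM, which is not one of the counting intervals. NSUN5P2, a pseudogene of the RNA methyltransferase gene NSUN5, stood at 17.6, 2.08 and 0.08 CPM. All 3 were high in control and low in both siRNA libraries, at control levels far below that of RBM8A. All 6 annotated starts of GTF2IRD2 (chr7:74210483-74267847) and the single start of NSUN5P2 (chr7:72419024-72425256) had exact copies elsewhere on chromosome 7. No gene had values identical to those of a member.

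The siRNA sequences were compared with the members because both were designed against another gene. As given they read, as sense strands from 5′ to 3′:
RAB11A siRNA 1: gcauccagguugauggaaa
RAB11A siRNA 2: agcaagagcuuuugcagaa

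The longest exact run that the RBM8A transcript shared with these sense strands was 8 of 19 bases for each siRNA, in a canonical transcript of 4908 bases. For the 9 partners the longest runs were between 6 and 9 bases. RBM8A had 0 matches in its 3′ UTR of 4328 bases to a 7-base seed site, the complement of guide bases 2 to 8, of either siRNA. Of 3063 genes with a 3′ UTR of 0.5 to 2 times that length, 28% held such a site for siRNA 1 and 31.4% for siRNA 2. MAGOHB and CASC3 each had 1 site for siRNA 2, and no partner had one for siRNA 1. Only this kind of site was searched, in canonical transcripts, and seed sites of the sense strands were not. The part of siRNA matches in the RBM8A difference was not tested.

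The genes next to RBM8A on chromosome 1 were compared as its neighbourhood. LIX1L, whose start lies 30.5 kb before that of RBM8A, stood at 69.4 CPM with control, 76.2 with siRNA 1 and 77.9 with siRNA 2. RP11-315I20.1, annotated as LIX1L-AS1 and named after its values were seen, runs antisense across the RBM8A start and stood at 4.40, 4.16 and 3.44 CPM. Neither LIX1L nor the antisense RNA came near a 2-fold difference. POLR3GL and POLR3C, which encode RNA polymerase III subunits, stood at 42.3, 42.9 and 38.1 CPM and at 52.0, 43.8 and 45.9 CPM. PIAS3, a SUMO ligase, stood at 47.5, 39.1 and 32.5 CPM, and RNF115, a ubiquitin ligase, at 113.6, 78.6 and 101.3. Of 6 neighbours compared, 0 were at least 2-fold lower than control with siRNA 1, beside 0.519% of all genes compared, or with siRNA 2, beside 0.269%, and 0 were at least 2-fold higher with either. In both siRNA libraries 4 of the 6 were below control, beside 44.5% of all genes compared. TXNIP, an inhibitor of thioredoxin, stood at 4.80, 3.08 and 1.80 CPM, and ITGA10 and NUDT17 stood at or below 1.36 CPM, all under the mean that was compared. ANKRD35, GNRHR2 and ANKRD34A matched no listed symbol.

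Without RBM8A, the complex partners and decay factors lay close to control. Of the 10 members, 1 was at least 2-fold lower with siRNA 1 than control, against 0.519% of all genes compared, and 0 were at least 2-fold higher, against 0.371%. With siRNA 2, 1 was at least 2-fold lower, against 0.269%, and 0 were higher, against 0.195%. In each case the 1 gene was RBM8A, so the count is that of the choice. Between siRNA 1 and siRNA 2, 0 members were at least 2-fold lower or higher, against 0.185% and 0.167%. The median log2 ratio of the 9 partners was 0.03 for siRNA 1 and -0.07 for siRNA 2, beside -0.03 and -0.04 over all genes compared. Their ratios ran from -0.35 to 0.30 with siRNA 1 and from -0.31 to 0.04 with siRNA 2. Of the 9, 2 were above control in both siRNA libraries and 4 below in both, beside 31.4% and 44.5% of all genes compared.

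**Figure D3:**
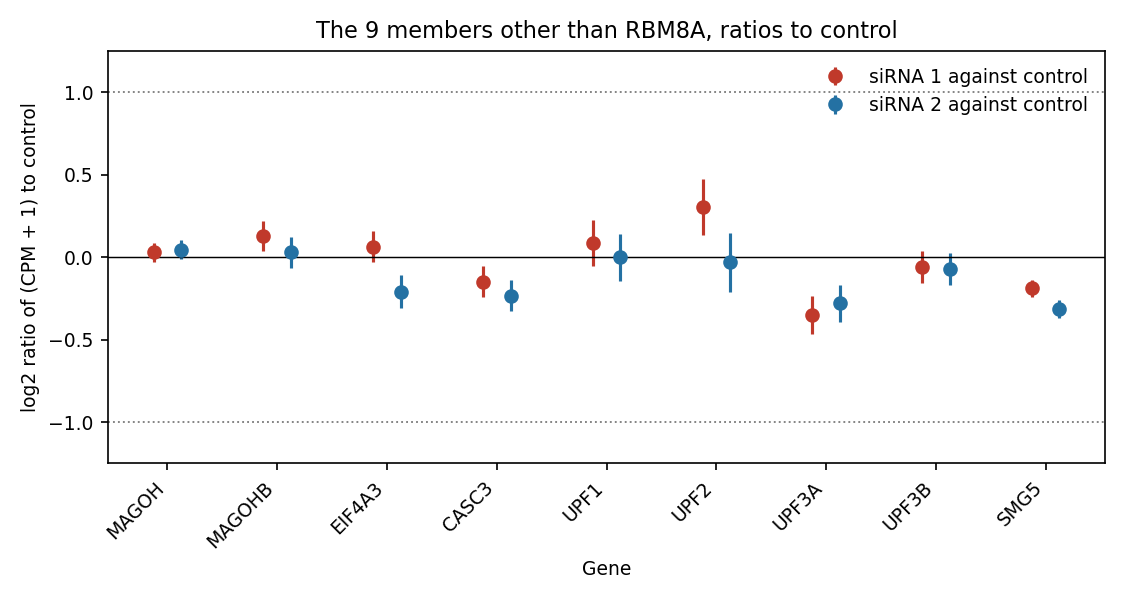
Log2 ratio of (CPM + 1) to control for the 9 members other than RBM8A, with siRNA 1 in red and siRNA 2 in blue, bars being 95% counting intervals and dotted lines marking a 2-fold difference. Every point lies between -0.35 and 0.30, well inside the dotted lines.

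MAGOH (chr1:53692572-53704190, minus strand), which forms a dimer with RBM8A, stood at 191.7 CPM with control, 195.8 with siRNA 1 and 197.8 with siRNA 2. Its 3 libraries lay within counting error of each other, at 102.1% of control with siRNA 1 (interval 98.1% to 106.3%) and 103.2% with siRNA 2 (99.1% to 107.4%). MAGOHB (chr12:10756792-10766208, minus strand) stood at 71.4, 78.0 and 72.8 CPM. The siRNA 1 library was the highest, at 109.3% of control (102.5% to 116.6%), and the siRNA 2 library stood at 102.0% (95.5% to 109.0%). MAGOH thus gave 2.69 times the tags of MAGOHB in control (2.54 to 2.84), 2.51 times with siRNA 1 (2.38 to 2.65) and 2.72 times with siRNA 2 (2.57 to 2.87), and these intervals overlapped.

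Within a library, the ratio of RBM8A to its partners does not depend on scaling. It can depend on how reads shared with the pseudogene were placed, which was not tested. RBM8A stood at 1.34 times the sum of MAGOH and MAGOHB in the control library (1.30 to 1.39). RBM8A was at 0.0413 times that sum with siRNA 1 (0.0366 to 0.0466) and at 0.0411 times with siRNA 2 (0.0363 to 0.0463). The RBM8A term chose the gene, so the change in this ratio is a description. The summed level of both partners was 263.1, 273.8 and 270.6 CPM.

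EIF4A3 (chr17:78108168-78120950, minus strand), the helicase that anchors the complex on RNA, stood at 67.7 CPM with control, 70.8 with siRNA 1 and 58.4 with siRNA 2. The siRNA 2 library was the lowest, at 86.3% of control (80.4% to 92.6%), while the siRNA 1 library stood at 104.6% (97.8% to 111.9%). Between siRNA 1 and siRNA 2 the log2 ratio of EIF4A3 was 0.27 with a counting standard error of 0.05. CASC3 (chr17:38296571-38328424, plus strand), the fourth core protein of the complex, stood at 73.7, 66.4 and 62.6 CPM. Both siRNA libraries were below control, at 90.0% (84.2% to 96.2%) and 84.9% (79.3% to 90.8%). EIF4A3 stood at 0.919 times CASC3 in control (0.859 to 0.982), 1.07 times with siRNA 1 (0.998 to 1.142) and 0.934 times with siRNA 2 (0.869 to 1.004). The intervals of control and siRNA 1 did not overlap, and that of siRNA 2 overlapped both. The translation factors EIF4A1 and EIF4A2, paralogs of EIF4A3, stood at 1052, 1005 and 910 CPM and at 164.4, 134.8 and 121.8 CPM. Like EIF4A3 both were lowest with siRNA 2, and EIF4A2 had log2 ratios of -0.28 and -0.43.

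UPF1 (chr19:18942768-18979039, plus strand), the RNA helicase at the centre of nonsense-mediated decay, stood at 29.9 CPM with control, 31.8 with siRNA 1 and 29.8 with siRNA 2. The counting intervals of all 3 libraries overlapped. UPF2 (chr10:11962021-12085169, minus strand), which bridges UPF1 and the UPF3 proteins, had the lowest level of the members in the control library, at 18.1 CPM against 22.6 with siRNA 1 and 17.7 with siRNA 2. The siRNA 1 library was the highest, with a log2 ratio of 0.30 to control (counting standard error 0.09) and 0.33 to siRNA 2 (0.09), and control and siRNA 2 lay within counting error of each other. The UPF1 and UPF2 ratios of siRNA 2 to control, -0.00 and -0.03, changed sign under other scalings and carry no direction.

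UPF3A (chr13:115047076-115071292, plus strand) and UPF3B (chrX:118967985-118986961, minus strand) are paralogs that link UPF2 to the exon junction complex. UPF3A stood at 53.9 CPM with control, 42.0 with siRNA 1 and 44.3 with siRNA 2. Both siRNA libraries were below control with intervals that did not reach it, at 78.0% (71.9% to 84.6%) and 82.1% (75.8% to 89.0%). UPF3B stood at 68.0, 65.1 and 64.6 CPM, at 95.7% (89.4% to 102.5%) and 95.1% (88.8% to 101.8%) of control. The UPF3A to UPF3B ratio was 0.793 in control (0.738 to 0.852), 0.646 with siRNA 1 (0.597 to 0.699) and 0.685 with siRNA 2 (0.634 to 0.740). UPF3A had log2 ratios to control of -0.35 and -0.28, in absolute size above those of 81.2% and 76.7% of the genes compared.

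SMG5 (chr1:156219015-156252616, minus strand), an adaptor that binds phosphorylated UPF1, stood at 258.9 CPM with control, 227.2 with siRNA 1 and 208.0 with siRNA 2. Control was the highest library and siRNA 2 the lowest, with intervals that did not overlap between any of the 3. SMG5 stood at 87.8% of control with siRNA 1 (84.7% to 90.9%) and at 80.4% with siRNA 2 (77.5% to 83.4%). It had the highest level of the 5 decay factors among the members in every library and, in both siRNA libraries, the highest of all members.

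In the control library the levels ran from RBM8A through SMG5 and MAGOH to CASC3, MAGOHB, UPF3B and EIF4A3, and then to UPF3A, UPF1 and UPF2. CASC3, MAGOHB, UPF3B and EIF4A3 lay between 67.7 and 73.7 CPM, and neighbours in that order had overlapping counting intervals. All other steps in the order had intervals that did not overlap. In both siRNA libraries RBM8A had the lowest level of the 10.

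An exact two-sided binomial test on the tags with Benjamini-Hochberg adjustment at 0.05, which compares these libraries and not the conditions, passed many more genes. With siRNA 1 against control it passed 4 members lower, beside 29.1% of all genes compared, and 2 higher, beside 23.3%. The lower ones were RBM8A, CASC3, UPF3A and SMG5, and the higher ones MAGOHB and UPF2. With siRNA 2 it passed 5 members lower, beside 29.9%, and 0 higher, beside 18.4%. These were RBM8A, EIF4A3, CASC3, UPF3A and SMG5. Between siRNA 1 and siRNA 2 it passed 0 lower, beside 15.4%, and 3 higher with siRNA 1, beside 21.4%, namely EIF4A3, UPF2 and SMG5. With so many genes past this test, the member counts say little about the members.

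The other genes of the pathway were taken from lists of known roles. Of 12 assembly and peripheral factors of the exon junction complex, 0 were at least 2-fold from control with either siRNA. Of all genes compared, 0.519% were at least 2-fold lower and 0.371% higher with siRNA 1, and 0.269% and 0.195% with siRNA 2. With each siRNA 6 factors were above control and 6 below, and the medians were -0.02 and -0.06. Over all genes compared 54.6% were below control with siRNA 1 and 58.2% with siRNA 2, with medians of -0.03 and -0.04. WIBG, which takes the complex apart during translation, stood at 19.8, 15.1 and 16.1 CPM. CWC22, the splicing factor that brings EIF4A3 to the spliceosome, stood at 16.3, 14.4 and 12.6 CPM. C17orf85, a cap-binding protein, stood at 97.4, 76.1 and 82.3 CPM. PYM1 and NCBP3, the newer names of WIBG and C17orf85, matched no symbol. All 3 were below control in both siRNA libraries, by less than a 2-fold difference.

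Of 17 other nonsense-mediated decay factors, 0 were at least 2-fold from control. Of all genes compared, 0.519% were at least 2-fold lower and 0.371% higher with siRNA 1, and 0.269% and 0.195% with siRNA 2. With siRNA 1, 7 factors were above control and 10 below (median -0.10), and with siRNA 2, 4 were above and 13 below (median -0.07). Over all genes compared 54.6% were below control with siRNA 1 and 58.2% with siRNA 2, with medians of -0.03 and -0.04. SMG1, the kinase that phosphorylates UPF1, stood at 21.8 CPM with control, 13.8 with siRNA 1 and 17.6 with siRNA 2, with log2 ratios of -0.62 and -0.30. SMG8, a subunit of the SMG1 kinase complex, was listed above control in both siRNA libraries, at 4.16, 5.12 and 6.56 CPM (104, 128 and 164 tags). Its interval included control with siRNA 1 (94.3% to 161%) but not with siRNA 2 (122.6% to 203.6%). Of 11 decapping and decay enzymes, 0 were at least 2-fold from control. With siRNA 1, 4 were above and 7 below, with siRNA 2, 2 were above and 9 below, and the medians were -0.02 and -0.08. Beside the same all-gene shares, 0 calls among so few genes says little about either list. SKIV2L, a helicase that feeds RNA to the exosome, stood at 25.8, 20.6 and 21.3 CPM. EDC3, an enhancer of decapping, stood at 19.5, 20.8 and 16.5 CPM, and CNOT1, the scaffold of the main deadenylase complex, at 155.2, 145.1 and 133.6.

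Transcripts known as targets of nonsense-mediated decay were read as a separate list of 22, of which 21 were listed and compared. With siRNA 1, 8 were above control and 13 below (median -0.17), and with siRNA 2, 6 were above and 15 below (median -0.13), beside medians of -0.03 and -0.04 over all genes compared. In both siRNA libraries 6 were above control and 13 below, beside 31.4% and 44.5% of all genes compared. With siRNA 1, 2 of them were at least 2-fold lower, beside 0.519%, with siRNA 2 0 were, beside 0.269%, and 0 were at least 2-fold higher with either. DDIT3, a stress-induced transcription factor that is also a target of ATF4, stood at 196.0 CPM with control, 96.0 with siRNA 1 and 110.9 with siRNA 2. ZFAS1, a noncoding host of small nucleolar RNAs, stood at 481.8, 238.9 and 326.1 CPM. Both were highest in control and lowest with siRNA 1, with log2 ratios of -1.02 and -0.82 for DDIT3 and -1.01 and -0.56 for ZFAS1. The list's other noncoding hosts of small nucleolar RNAs, all given here and named after their values were seen, had ratios of both signs. With siRNA 1 and siRNA 2 the log2 ratios to control were -0.72 and -0.41 for EPB41L4A-AS1, -0.17 and -0.26 for SNHG1, 0.36 and -0.02 for GAS5 and 0.09 and -0.10 for SNHG16. They were 0.44 and 0.14 for SNHG12 and 0.03 and 0.01 for SNHG15. Coding genes of the list also had ratios of both signs, as in these examples named after their values were seen. The log2 ratios were -0.41 and -0.26 for ATF4, 0.34 and 0.51 for GADD45B and 0.36 and 0.14 for SRSF2. CAGE counts starts, so splice variants with a premature stop that share a start with the productive transcript are not told apart.

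**Figure D4:**
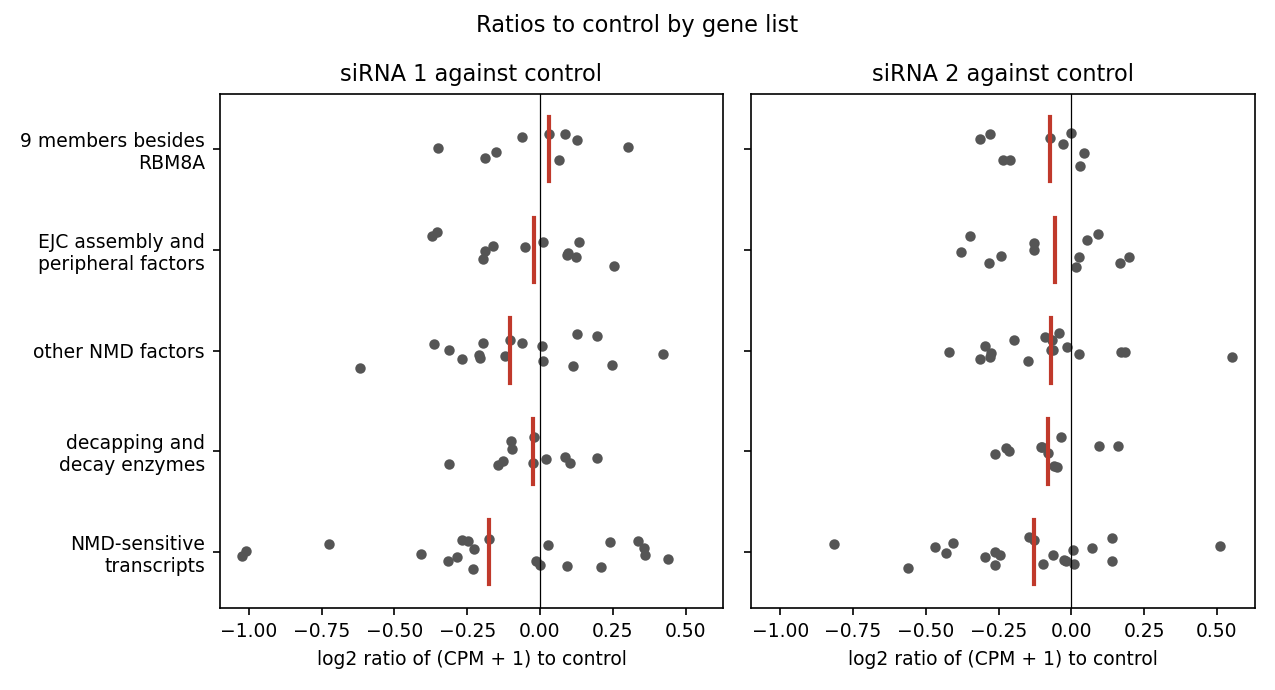
Log2 ratio of (CPM + 1) to control with siRNA 1 (left) and siRNA 2 (right) for the 9 members other than RBM8A and for 4 lists of related genes, 1 point per gene with the median as a red line. The medians lie between -0.17 and 0.03, and the lowest points are DDIT3 and ZFAS1 among the decay-sensitive transcripts.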

How the data were processed

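RNA 5′ ends of 3 CAGE libraries were analysed, 1 per siRNA. The deposited table holds CPM for each gene on its strand. Per the submitters' processing notes, BWA, HISAT2 and hg19 were used. What each tool did, how tags were assigned to genes and where multiply matching reads went is not stated in the sources used here. Deposited CPM were whole multiples of the value of 1 tag for 99.9% of values in each library, within 0.005 CPM. The tags recovered from them gave exact Poisson intervals and the binomial test. Scripts were tested on simulated data. Every listed gene reached at least 0.52 CPM in 1 library.

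The members and lists were chosen with earlier results of these data known. Named genes were the members, RAB11A, every entry under the symbol of a relative or neighbour of RBM8A, and the 3 genes nearest to RBM8A by both ratios. From each other list they were those at least 2-fold from control, or else the 3 with the largest mean absolute log2 ratio. Some genes that this rule names are not reported here. GENCODE annotation lifted to GRCh37 held 97.7% of the table's identifiers, 9 of the 10 members by identifier and RBM8A by symbol. The first 50 bases of each annotated start were searched for exact copies outside the gene, and canonical starts with BLAST 2.17.0 (expectation 0.01, word size 11). Alternatives were a pseudocount of 0.5 or 5 CPM, a minimum mean of 1 or 20 CPM or none, TMM scaling from edgeR 4.0.16 in R 4.3.3, median ratios and the binomial test. Other steps ran in Python 3.11.15 with Biopython 1.88, pysam 0.24.0, scipy 1.17.1, pandas 2.3.3, numpy 2.4.6 and matplotlib 3.10.9.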

Additional observations from a re-analysis of the deposited data

How the results depend on the processing

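The count of 1 member at least 2-fold lower than control with each siRNA was the same under both other pseudocounts, all 3 other filters, TMM and median-ratio scaling, and with RBM8A summed with its pseudogene. Under the binomial test the count was 4 with siRNA 1 and 5 with siRNA 2, and the counts higher were 2 with siRNA 1 against control and 3 with siRNA 1 against siRNA 2. Leaving out genes with an exact start copy or with no search, a choice made after the data had been seen, gave 0 with siRNA 1 and 0 with siRNA 2, because RBM8A is itself such a gene. Summing RBM8A with its pseudogene, the other later choice of setting, gave log2 ratios of -3.53 and -3.48, and a pseudocount of 5 CPM gave -4.46 and -4.47. Tags at the copied stretch upstream of the annotated pseudogene were not analysed, so the sum is no test of read placement. The median of the 9 partners with siRNA 1 was -0.02 at a minimum mean of 20 CPM, which leaves out UPF2. With siRNA 2 the partner median ran from -0.14 at that minimum to -0.03 under TMM scaling. Values this close to 0 carry no direction. The assembly factors had medians of 0.09 with siRNA 1 and 0.03 with siRNA 2 at the 20 CPM minimum.

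Over all genes, the counts at least 2-fold lower with siRNA 1 and siRNA 2 were 30 and 18 with a pseudocount of 5 CPM, 33 and 13 at a minimum mean of 20 CPM and 95 and 54 with no filter. The 2-fold count cannot be set against spread between cultures, and the counting error of a ratio, 0.07 at the median gene, is only part of that spread. No paired analysis was possible because each group has 1 library.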
